A study of Homo sapiens with 6 samples.

Results

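Hepatocyte growth factor (HGF), its receptor MET, the genes that control HGF activation and the urokinase system were examined in A673/TR/shEF cells. The 9 genes were HGF, MET, HGFAC, ST14, SPINT1, SPINT2, PLAU, PLAUR and PLAT, taken by name out of the 26364 gene symbols listed in the deposited expression values, and all 9 were found. A673 is a cell line from Ewing sarcoma that carries the EWSR1::FLI1 fusion, and its A673/TR/shEF derivative holds a tetracycline repressor and a doxycycline-inducible shRNA against the fusion mRNA. The 3 EWSR1::FLI1high samples were left untreated, and the 3 EWSR1::FLI1low samples received 1 µg/mL doxycycline for 72 h, so each sample of both groups carried the same construct, and no sample with doxycycline but without the shRNA was analysed here. Effects of doxycycline and of the knockdown therefore cannot be told apart in these samples. The series description speaks of independent clones and the titles number experiments, so p-values measure the spread between these samples, which may in part be technical.

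HGF is secreted as an inactive single chain and activates MET, a receptor tyrosine kinase best known for driving migration and invasion of epithelial cells, only after it has been cleaved. HGFAC and the membrane protease matriptase, encoded by ST14, carry out that cleavage, and the Kunitz-type inhibitors encoded by SPINT1 and SPINT2 block these proteases. Urokinase (PLAU) and tissue-type plasminogen activator (PLAT) convert plasminogen to plasmin, which degrades fibrin and matrix proteins, and the receptor uPAR (PLAUR) holds urokinase at the cell surface.

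Upon EWSR1::FLI1 knockdown, the ligand HGF and both plasminogen activators rose. In mean FPKM (a read level scaled to gene length and library size), HGF was 7.88 times, PLAU 9.49 times and PLAT 12.6 times as high as in EWSR1::FLI1high cells. The receptors MET and PLAUR were at 3.74 and 4.98 times their EWSR1::FLI1high means but did not pass the main test over all 6 libraries. The inhibitor SPINT1 was at nearly equal levels in both groups, and HGFAC, ST14 and SPINT2 lay under the limit for testing.

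Sequences upstream of the start sites of 4 genes, the ligand, both receptors and PLAU, are shown to place these genes beside their regulatory letters. RefSeq promoters (GRCh38.p14) were matched for 6 of the 9 genes, HGF, MET, HGFAC, SPINT1, PLAU and PLAUR, with 8 entries in all. The 250 bases before the start are given from 5′ to 3′, with the letters of searched motifs in capitals. HGF lies on the minus strand (chr7:81770048-81770297), MET on the plus strand (chr7:116671946-116672195), PLAU on the plus strand (chr10:73910882-73911131, the second of its 2 start sites) and PLAUR on the minus strand (chr19:43670170-43670419).
HGF: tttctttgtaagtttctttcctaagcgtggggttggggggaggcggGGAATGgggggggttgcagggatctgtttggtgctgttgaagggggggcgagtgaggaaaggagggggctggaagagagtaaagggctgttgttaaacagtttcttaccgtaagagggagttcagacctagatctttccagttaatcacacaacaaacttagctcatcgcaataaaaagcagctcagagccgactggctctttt
MET: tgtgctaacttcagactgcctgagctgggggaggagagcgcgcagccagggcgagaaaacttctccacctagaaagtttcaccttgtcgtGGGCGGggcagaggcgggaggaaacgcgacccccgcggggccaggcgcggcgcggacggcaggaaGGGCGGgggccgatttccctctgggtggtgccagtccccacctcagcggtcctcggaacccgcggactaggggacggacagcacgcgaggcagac
PLAU: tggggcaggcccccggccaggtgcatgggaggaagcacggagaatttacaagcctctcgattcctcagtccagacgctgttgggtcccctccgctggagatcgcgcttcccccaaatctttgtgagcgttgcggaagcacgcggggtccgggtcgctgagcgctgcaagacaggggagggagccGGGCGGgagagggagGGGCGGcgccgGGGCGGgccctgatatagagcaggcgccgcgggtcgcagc
PLAUR: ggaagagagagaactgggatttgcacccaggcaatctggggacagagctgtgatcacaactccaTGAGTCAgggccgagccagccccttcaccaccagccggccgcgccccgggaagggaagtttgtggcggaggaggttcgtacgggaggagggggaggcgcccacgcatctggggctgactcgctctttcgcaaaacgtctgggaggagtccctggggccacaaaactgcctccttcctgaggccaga

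Searched on both strands were the ETS core CCGGAA, the tandem GGAAGGAA, which shares the letters GGAA with it, the AP-1 motif TGANTCA, the GC box GGGCGG, the letters TATAAA and the TEAD motif GGAATG. Neither CCGGAA nor GGAAGGAA was found in these 250 bases of any of the 8 entries, while 14.5% and 3.06% of all 35116 promoters of this length held them. The promoter of PLAUR held 1 AP-1 motif (6.57% of all promoters held at least 1), and that of HGF held 1 TEAD motif (11.9% of all). MET had 2 GC boxes and the printed PLAU promoter 3 (42.6% of all promoters held at least 1), whereas the promoters of HGF and PLAUR had none. The GC content was 50% for HGF, 68.4% for MET, 68.8% for the printed PLAU promoter and 63.2% for PLAUR, beside a median of 58.0% over all promoters. The other PLAU start site had 46.8% GC and none of these motifs. These matches describe letters only, and binding was not measured. No promoter of ST14, SPINT2 or PLAT was searched, so the absence of CCGGAA and GGAAGGAA is not shown for these genes. Entries on chromosome 8, where PLAT lies, were left out by rule when members were searched, but not from the 35116 promoters.

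The libraries held between 6980361 and 16658933 reads on genes. FLI1, the 3′ part of the fusion, was at 11.3, 12.7 and 14.2 FPKM in EWSR1::FLI1high replicates 1 to 3, compared with 2.91, 4.29 and 3.68 FPKM in EWSR1::FLI1low replicates 1 to 3. Of 10 Ewing sarcoma markers, 8 fell and none rose (limma, adjusted p under 0.01; at an unadjusted p under 0.05 all 10 were lower, and limma-voom called 9 lower and none higher). EWSR1, the 5′ partner, was at 79.5 to 107 FPKM in EWSR1::FLI1high and at 47.2 to 78.0 FPKM in EWSR1::FLI1low libraries and was not called. EWSR1::FLI1low replicate 1 stood apart from the other libraries of its group. Over tested genes it correlated with them at r = 0.949 and 0.963, whereas these correlated with each other at r = 0.976. The FPKM values summed to 255956 in this library and to between 334614 and 366060 in the others. Among genes with a mean FPKM above 0 but under 0.5, 49.5% had their highest value in this library. The values of the tested genes and the counts of gene lists are therefore also given without it, a choice of emphasis made after the values were seen. Since the samples are bulk cultures, fewer expressing cells and less RNA per cell cannot be told apart.

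The genes were tested with limma on log2(FPKM + 1), with adjustment over the 15504 genes that had a mean FPKM of at least 0.5, and fold changes are on this scale, which understates changes of low genes. Of the 9 genes, 6 could be tested. At an adjusted p under 0.01, 3 of these 6 were higher in EWSR1::FLI1low cells, beside 4.51% of all genes tested, and none was lower, beside 3.37%. On recovered reads, limma-voom also called 3 higher and none lower, and it called 945 higher and 784 lower of all 15504 genes. At an unadjusted p under 0.05 (limma), 5 of the 6 were higher and none lower. The share of all genes at that unadjusted limit was not computed, so counts given at it have no background here or elsewhere. The median log2 fold change of the 6 was 1.75, beside -0.05 over all genes tested. The groups did not overlap for 4 of the 6, HGF, MET, PLAU and PLAT, with each EWSR1::FLI1low library above each EWSR1::FLI1high library, which was also the case for 17.5% of all genes tested, and none was lower without overlap, beside 23.6%. At an adjusted p under 0.05, 4 were higher (beside 9.87% of all genes), MET being the fourth. With a log2 fold change over 2.5 required as well as an adjusted p under 0.01, 2 were higher, PLAU and PLAT (beside 0.813%). Without EWSR1::FLI1low replicate 1, 5 of the 6 were called higher, all but SPINT1, beside 10.2% of the 14907 genes then tested, of which 15.7% were called in either direction.

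**Figure D1:**
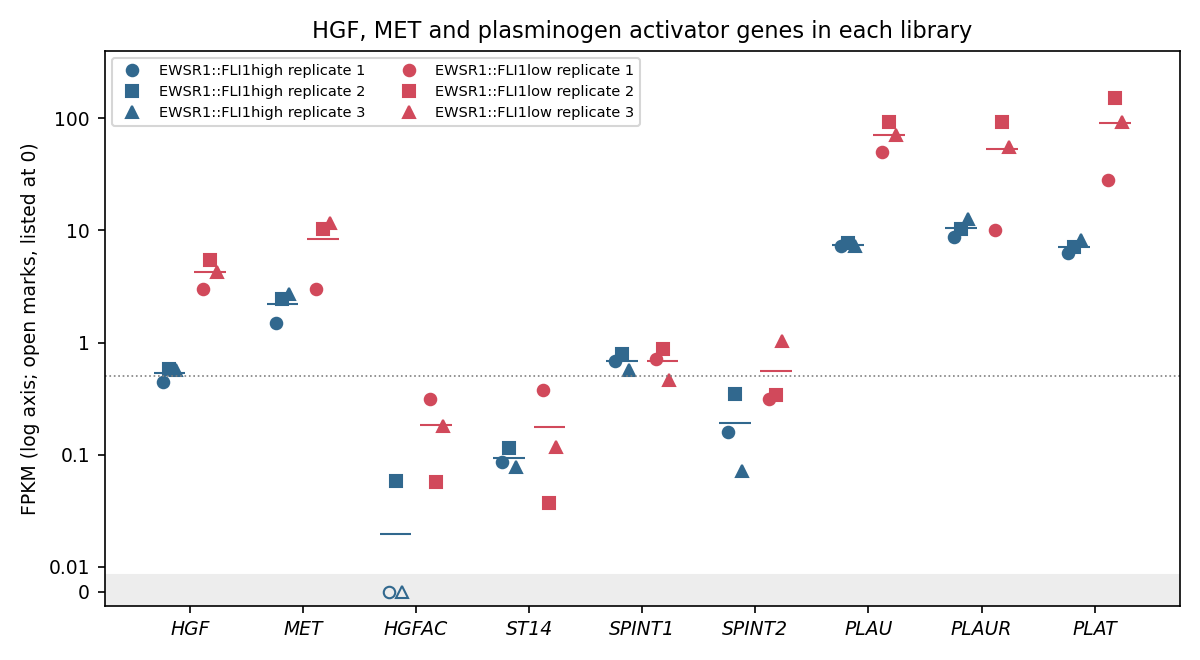
FPKM of the 9 genes (log axis, open marks on the grey band for genes listed at 0) in each of the 6 libraries, with a horizontal line at the mean of each group and a dotted line at the limit of 0.5 for the mean used in testing. HGF, MET, PLAU and PLAT were higher in each EWSR1::FLI1low library, while PLAUR in EWSR1::FLI1low replicate 1, at 10.2 FPKM, lay within the range of the EWSR1::FLI1high libraries.

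HGF (ENSG00000019991, chromosome 7, 81328326 to 81399754, minus strand, GRCh37, protein-coding) was expressed at 0.445, 0.586 and 0.573 FPKM in EWSR1::FLI1high replicates 1, 2 and 3, compared with 2.99, 5.41 and 4.24 FPKM in EWSR1::FLI1low replicates 1, 2 and 3. The 6 values split by group without overlap, and EWSR1::FLI1low replicate 1 was the lowest of its group. They rest on 20, 20 and 19 reads without doxycycline and on 114, 190 and 283 reads with doxycycline, and 3 reads correspond to at most 0.0904 FPKM in these libraries, so HGF was above this floor in all 6. With limma, HGF rose by 1.74 ± 0.20 (SE) on the log2 scale at an adjusted p of 0.000622, and by 1.92 (adjusted p = 0.000172) without EWSR1::FLI1low replicate 1. The size depended on the pseudocount, since 0.1 in place of 1 gave 2.73, and limma-voom on recovered reads gave 2.93.

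MET (ENSG00000105976, chromosome 7, 116312250 to 116438431, plus strand) was expressed at 1.48, 2.44 and 2.73 FPKM in EWSR1::FLI1high replicates 1, 2 and 3, compared with 3.02, 10.2 and 11.6 FPKM in EWSR1::FLI1low replicates 1, 2 and 3. The groups did not overlap, but EWSR1::FLI1low replicate 1 lay close to the upper end of the EWSR1::FLI1high range. The log2 fold change of 1.39 (standard error 0.40, 95% interval 0.48 to 2.29) had an adjusted p of 0.0400 with limma, above the limit of 0.01. When same-numbered libraries were blocked, limma gave an adjusted p of 0.00463 over all 6 libraries, and MET was called higher. Without EWSR1::FLI1low replicate 1 it was 1.91 (standard error 0.21, adjusted p = 0.000472, limma). The ratio of MET to HGF in FPKM was 3.34, 4.17 and 4.76 in EWSR1::FLI1high replicates 1, 2 and 3, and 1.01, 1.90 and 2.75 in EWSR1::FLI1low replicates 1, 2 and 3. It was lower in each EWSR1::FLI1low library than in any EWSR1::FLI1high library, and a two-sided exact permutation test gave p = 0.1, below which 3 libraries per group cannot go.

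The HGF-activating proteases were near the limit of detection. HGFAC (ENSG00000109758, chromosome 4, 3443695 to 3451213, plus strand), a plasma protease made mainly by the liver, was listed at 0 in EWSR1::FLI1high replicates 1 and 3 and at 0.0588 FPKM in replicate 2, and at 0.316, 0.0571 and 0.18 FPKM in EWSR1::FLI1low replicates 1, 2 and 3. These values are 0, 1 and 0 reads against 6, 1 and 6 reads. ST14 (ENSG00000149418, chromosome 11, 130029677 to 130080257, plus strand) was at 0.0866, 0.114 and 0.0782 FPKM in EWSR1::FLI1high replicates 1, 2 and 3, from 3, 3 and 2 reads, and at 0.375, 0.0369 and 0.117 FPKM in EWSR1::FLI1low replicates 1, 2 and 3, from 11, 1 and 6 reads. The groups overlapped for both genes. Summed over each group, HGFAC had 1 read (exact Poisson 95% interval 0.0253 to 5.57) against 13 reads (6.92 to 22.2), and these intervals, which cover counting error only, did not overlap. ST14 had 8 reads (3.45 to 15.8) against 18 reads (10.7 to 28.4), with overlapping intervals. Both were highest in EWSR1::FLI1low replicate 1. In the same library 8 of 12 hepatocyte and blood cell markers (66.7%) also had their highest value. The share was 49.5% over all genes with a mean FPKM above 0 but under 0.5. The part of these low-level signals in the values of HGFAC and ST14 was not tested.

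SPINT1 (ENSG00000166145, chromosome 15, 41136216 to 41150405, plus strand), which encodes hepatocyte growth factor activator inhibitor type 1, was at 0.681, 0.797 and 0.564 FPKM in EWSR1::FLI1high replicates 1, 2 and 3, compared with 0.714, 0.871 and 0.459 FPKM in EWSR1::FLI1low replicates 1, 2 and 3. The groups overlapped throughout, and the values rest on 11 to 18 reads per library. The difference on the log2(FPKM + 1) scale was 0.00 with a 95% interval from -0.39 to 0.38 (adjusted p = 0.990, limma), so values within this interval were not told apart from no difference. SPINT2 (ENSG00000167642, chromosome 19, 38734675 to 38783255, plus strand), which encodes the type 2 inhibitor, was at 0.159, 0.348 and 0.0716 FPKM in EWSR1::FLI1high replicates 1, 2 and 3, compared with 0.312, 0.338 and 1.03 FPKM in EWSR1::FLI1low replicates 1, 2 and 3. The highest value, from 29 reads in EWSR1::FLI1low replicate 3, stood alone, since the other libraries held 1 to 5 reads on SPINT2. The groups overlapped, and a two-sided exact permutation test gave p = 0.3 for SPINT2, where 0.1 is the lowest possible.

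ST14, SPINT1 and SPINT2 are best known from epithelia, and the epithelial markers were set beside them. Of 14 epithelial markers, 7 were under 0.5 FPKM in every library and 5 passed the limit for testing. None of these 5 was called in either direction with limma, and 1, CLDN4, was higher at an unadjusted p under 0.05 and with limma-voom, and was called without EWSR1::FLI1low replicate 1. The summed level of the list lay between 52.7 and 81.6 FPKM in EWSR1::FLI1high libraries and between 46.4 and 116 FPKM in EWSR1::FLI1low libraries, most of it from KRT18. CDH1, which encodes E-cadherin, was between 0.161 and 0.547 FPKM in all 6 libraries. Stromal markers stood differently, with 6 of 10 higher and none lower (limma; 7 higher and none lower at an unadjusted p under 0.05, 6 and none with limma-voom; 6 higher and 1 lower without EWSR1::FLI1low replicate 1) and a summed level of 105 to 133 FPKM in EWSR1::FLI1high and 594 to 743 FPKM in EWSR1::FLI1low libraries. The marker called lower without that library was DCN, at 4.39 FPKM in EWSR1::FLI1low replicate 1 and 0.437 and 0.179 FPKM in replicates 2 and 3. Most of the stromal sum in EWSR1::FLI1low libraries came from NT5E (160 to 428 FPKM) and COL3A1 (184 to 262 FPKM). DCN, LUM, THY1 and ENG were not called over all 6 libraries (limma). The part of these markers in the values of the 9 genes was not tested.

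PLAU (ENSG00000122861, chromosome 10, 75668935 to 75677254, plus strand), which encodes urokinase, was at 7.26, 7.79 and 7.29 FPKM in EWSR1::FLI1high replicates 1, 2 and 3, compared with 49.7, 91.7 and 70.6 FPKM in EWSR1::FLI1low replicates 1, 2 and 3. The lowest EWSR1::FLI1low library was at 6.68 times the EWSR1::FLI1high mean, and the 3 EWSR1::FLI1high libraries differed by a standard deviation of 0.295 FPKM. With limma, PLAU rose by 3.04 ± 0.23 (SE) on the log2 scale (adjusted p = 0.000112), more than all but 76 of the genes tested, and by 3.27 without EWSR1::FLI1low replicate 1 (adjusted p = 1.52e-05). C10orf55 overlaps PLAU on the opposite strand and was at 0.114 to 0.30 FPKM in EWSR1::FLI1high and 0.761 to 1.31 FPKM in EWSR1::FLI1low libraries. Whether strand was used in counting is not given in the sources used here, so reads of this pair may have been exchanged.

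PLAUR (ENSG00000011422, chromosome 19, 44150247 to 44174699, minus strand), the urokinase receptor, was at 8.77, 10.4 and 12.6 FPKM in EWSR1::FLI1high replicates 1, 2 and 3, compared with 10.2, 92.3 and 55.8 FPKM in EWSR1::FLI1low replicates 1, 2 and 3. EWSR1::FLI1low replicates 2 and 3 were far above all EWSR1::FLI1high libraries, but replicate 1, with 182 reads on the gene, was at 0.961 of the EWSR1::FLI1high mean. The log2 fold change of 1.76 (standard error 0.65, 95% interval 0.30 to 3.23) was not significant (adjusted p = 0.0884, limma). Without this library it was 2.66 (standard error 0.24, adjusted p = 0.000189, limma). The call on PLAUR thus rested on 1 of the 6 libraries.

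PLAT (ENSG00000104368, chromosome 8, 42032236 to 42065227, minus strand), tissue-type plasminogen activator, was at 6.31, 7.08 and 8.14 FPKM in EWSR1::FLI1high replicates 1, 2 and 3, compared with 28.1, 150 and 93.1 FPKM in EWSR1::FLI1low replicates 1, 2 and 3. The groups did not overlap, and EWSR1::FLI1low replicate 1 was again the lowest of its group, at 3.92 times the EWSR1::FLI1high mean. PLAT rose by 3.20 ± 0.50 (SE) on the log2 scale (limma, adjusted p = 0.00325), and by 3.87 without that library (limma, adjusted p = 3.03e-05). When single libraries were dropped in turn, limma no longer called PLAT in 4 of 6 fits, those without an EWSR1::FLI1high library and without EWSR1::FLI1low replicate 3, where its adjusted p reached 0.0191.

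**Figure D2:**
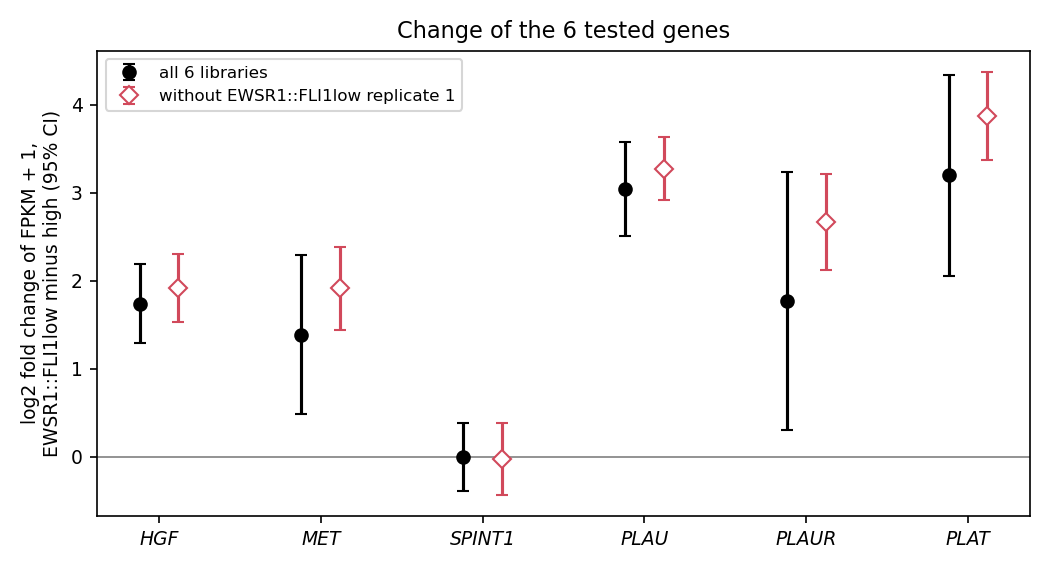
Log2 fold change of FPKM + 1 (EWSR1::FLI1low minus EWSR1::FLI1high) with 95% confidence intervals for the 6 tested genes, over all 6 libraries (black) and without EWSR1::FLI1low replicate 1 (red). The interval of PLAUR narrowed from 0.30 to 3.23 with all libraries to 2.12 to 3.21 without it, and SPINT1 lay at 0 in both fits.

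The levels were compared within each condition, since FPKM is scaled to gene length. In EWSR1::FLI1high cells the order was PLAUR (10.6 ± 1.95 FPKM, SD, n = 3), PLAU (7.45 ± 0.295), PLAT (7.17 ± 0.919), MET (2.22 ± 0.651), SPINT1 (0.680 ± 0.117), HGF (0.534 ± 0.0778), SPINT2, ST14 and HGFAC. PLAU and PLAT overlapped, as did SPINT1 with HGF and SPINT2 with ST14, and the other neighbours in this order were apart. The order of ST14 and HGFAC rests on values at or under the floor of 3 reads, so it is not a separation of levels. In EWSR1::FLI1low cells PLAT came first (90.5 ± 61.1 FPKM, SD, n = 3), before PLAU (70.7 ± 21.0), PLAUR (52.8 ± 41.1), MET (8.30 ± 4.63), HGF (4.21 ± 1.21) and SPINT1 (0.681 ± 0.208). All neighbours overlapped there except HGF and SPINT1. HGF, which had 45.3% of all gene symbols below its mean in EWSR1::FLI1high cells, had 65.7% below it in EWSR1::FLI1low cells, and for PLAT the share went from 72.2% to 97.5%.

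The 5 genes other than SPINT1 differed in how far EWSR1::FLI1low replicate 1 fell behind. Its level was 0.620 of the mean of replicates 2 and 3 for HGF and 0.613 for PLAU, but 0.276 for MET, 0.231 for PLAT and 0.137 for PLAUR. Among all 84 tested genes of the pathway lists below, called or not, 10 were under 0.3 on this measure and 18 above 1, with a median of 0.673. On the log2 scale of FPKM + 1, the median of this measure was -0.25 over all 15504 genes tested. It was -0.29 over the 700 genes called higher. The ratio of PLAU to its receptor PLAUR in FPKM was 4.89 in this library, 0.994 and 1.26 in EWSR1::FLI1low replicates 2 and 3, and 0.828, 0.752 and 0.577 in EWSR1::FLI1high replicates 1, 2 and 3. It was higher in each EWSR1::FLI1low library, with a two-sided exact permutation p of 0.1, the lowest value this design can give.

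**Figure D3:**
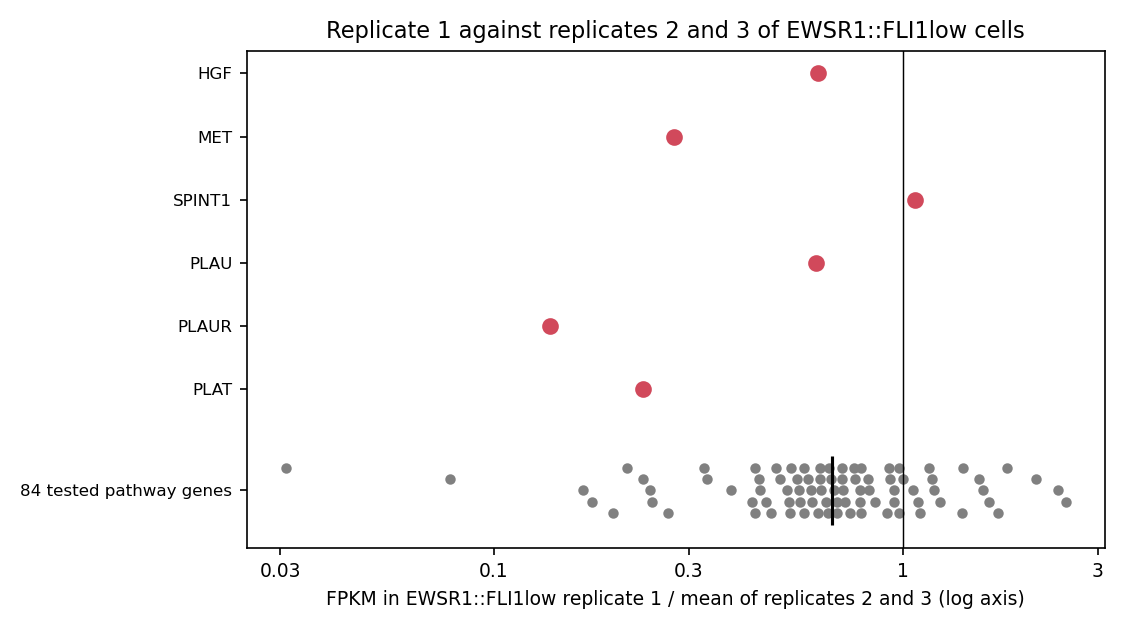
FPKM in EWSR1::FLI1low replicate 1 divided by the mean of EWSR1::FLI1low replicates 2 and 3 (log axis), for the 6 tested genes (red) and, in one row with a black line at the median, all 84 tested genes of the pathway lists, called or not (grey, offset vertically for visibility only). PLAUR (0.137), PLAT (0.231) and MET (0.276) lie below 0.3, as do 10 of the 84. HGF (0.620) and PLAU (0.613) lie near the median of these 84 genes, 0.673, which is not a median over all genes tested.

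Other genes of both systems were taken from 8 lists with 108 genes in all, of which 84 could be tested. Of these, 21 rose and 3 fell (limma, adjusted p under 0.01), which is 28.6% called beside 7.88% of all genes tested, and the median log2 fold change was 0.49. Without EWSR1::FLI1low replicate 1, 34 of 81 tested were called higher and 3 lower. The lists were drawn up with earlier results of these libraries known. HGF, PLAU, PLAT and CD44 also stand among the genes that the study selected as changed on these libraries, and it names MMP2 and MMP13 as raised. The direction of these genes is therefore not independent evidence. With single libraries dropped in turn, the call was lost in 5 of 6 fits for SERPINE2, ITGA6 and PDGFRB, in 4 for EGFR, LAMC1, S100A10 and SERPINI1, in 3 for SDC1, and in 2 for CD44, FN1, HIST1H2BJ, LRP1, MRC2 and SORL1. None of these calls was lost without EWSR1::FLI1low replicate 1. The calls of the other 10 genes, A2M, BMP1, CCND1, CPB2, ITGAV, MMP2, MMP13, MMP14, SPRY2 and THBS1, were kept in all 6 fits.

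Among inhibitors of the plasminogen system, 3 of 8 tested genes rose and 1 fell (4 higher and 1 lower of 7 tested without EWSR1::FLI1low replicate 1). SERPINE2, an inhibitor of thrombin and urokinase (log2 fold change 1.61), SERPINI1, the neuronal inhibitor of tissue-type activator (0.97), and the broad protease inhibitor A2M (4.14) rose. CPB2, whose product trims fibrin and so hinders plasmin formation, fell from 12.4 to 13.6 FPKM in EWSR1::FLI1high libraries to 0.552 to 1.59 FPKM in EWSR1::FLI1low libraries (log2 fold change -2.73, adjusted p = 0.000112, limma).

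The sum of PLAU and PLAT was 13.6, 14.9 and 15.4 FPKM in EWSR1::FLI1high replicates 1, 2 and 3 and 77.9, 242 and 164 FPKM in EWSR1::FLI1low replicates 1, 2 and 3. The ratio of PLAU to PLAT was 1.15, 1.10 and 0.897 in EWSR1::FLI1high replicates 1, 2 and 3 and 1.77, 0.611 and 0.758 in EWSR1::FLI1low replicates 1, 2 and 3. The groups overlapped, with replicate 1 the highest and the other EWSR1::FLI1low libraries the lowest (two-sided exact permutation test, p = 1).

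Plasminogen and its surface receptors gave 4 higher and 1 lower of 10 tested genes (6 higher and 1 lower of 9 tested without EWSR1::FLI1low replicate 1). PLG itself, the source of plasmin, was listed at 0.0913 to 0.361 FPKM in the 6 libraries and was not tested, as it lay under the limit. S100A10, a plasminogen-binding partner of annexin A2, was at 1.54, 2.85 and 2.69 FPKM in EWSR1::FLI1high replicates 1, 2 and 3, compared with 12.5, 71.4 and 72.0 FPKM in EWSR1::FLI1low replicates 1, 2 and 3 (log2 fold change 3.65, adjusted p = 0.00335, limma). ANXA2 was highly expressed in both groups, at 311 to 367 and 459 to 746 FPKM, without overlap, and its log2 fold change of 0.85 had an adjusted p of 0.0210 (limma). The endocytic receptors LRP1, which clears complexes of proteases and their inhibitors, SORL1 and MRC2, which associates with uPAR, rose with log2 fold changes of 1.40, 1.34 and 1.38. The histone gene HIST1H2BJ, listed for histone H2B as a plasminogen receptor, fell by 1.33 on the log2 scale.

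Of the 9 tested partners of uPAR, 3 rose and none fell (limma; 8 higher and 1 lower at an unadjusted p under 0.05, 6 higher and none lower with limma-voom). Without EWSR1::FLI1low replicate 1, 8 of the 9 were called higher and none lower. ITGAV, the integrin αv subunit of vitronectin receptors, rose by 2.04 on the log2 scale (limma, adjusted p = 0.000719), EGFR by 1.39 and PDGFRB, which also stands among the stromal markers, by 1.31. Of 10 plasmin substrates and matrix proteases tested, 7 rose and none fell (7 and none also at an unadjusted p under 0.05, with limma-voom and without EWSR1::FLI1low replicate 1). They were the matrix proteins THBS1 (3.58), FN1 (1.57) and LAMC1 (1.18), and the metalloproteases MMP13 (2.89), MMP2 (2.43), MMP14 (2.09) and BMP1 (1.93), each value a log2 fold change.

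On the MET side, co-receptors and the paralogue list gave 3 higher and none lower of 6 tested genes (limma; 4 and none at an unadjusted p under 0.05, with limma-voom and without EWSR1::FLI1low replicate 1). CD44, a hyaluronan receptor with variant isoforms known as MET co-receptors, rose at the gene level with a log2 fold change of 3.28. Isoforms were not separated here, and the study reports the standard isoform, CD44s, as the only one significantly raised. A rise of the variant isoforms is therefore not shown. ITGA6 rose with a log2 fold change of 1.49, and SDC1, a heparan sulfate proteoglycan, with 1.34. The MET paralogue MST1R was at no more than 0.141 FPKM in any library. None of the 26 tested adaptors and effectors downstream of MET, such as GRB2 and GAB1, was called in either direction with limma (2 higher and 2 lower at an unadjusted p under 0.05, none with limma-voom, and 1 higher without EWSR1::FLI1low replicate 1), and their median log2 fold change was -0.03. Of 13 response genes of MET and ERK, SPRY2, a feedback inhibitor of receptor tyrosine kinases, rose (3.38) and CCND1, which encodes cyclin D1, fell by 1.87 on the log2 scale. At an unadjusted p under 0.05, 5 of the 13 were higher and 1 lower, and 4 were called higher and 1 lower without EWSR1::FLI1low replicate 1. Of 14 further proteases and inhibitors of HGF activation only 3, FURIN, F11 and KLKB1, passed the limit for testing, and none was called (limma; none at an unadjusted p under 0.05 and none with limma-voom). The hepsin gene HPN was at 0.0543 to 0.190 FPKM.

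**Figure D4:**
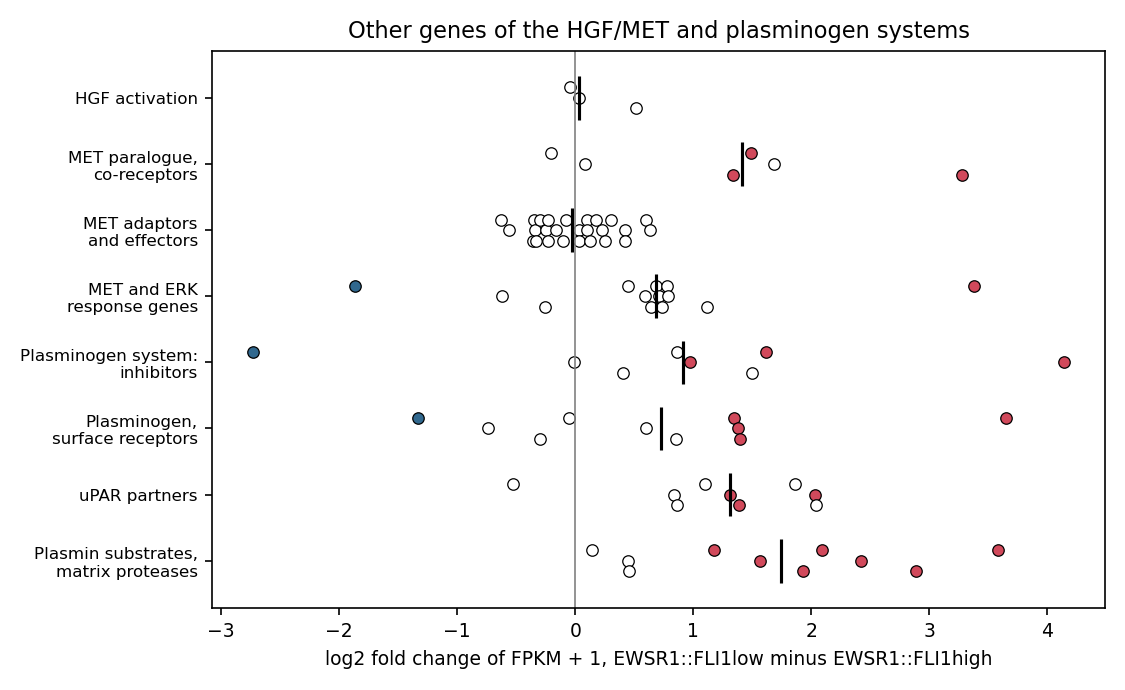
Log2 fold change of FPKM + 1 (EWSR1::FLI1low minus EWSR1::FLI1high) of each tested gene in the 8 pathway lists, with genes called higher in red, called lower in blue and not called in white at an adjusted p under 0.01 (limma), and a black line at the median of each list (points are offset vertically for visibility only). None of the 26 MET adaptors and effectors was called, while 7 of 10 plasmin substrates and matrix proteases were called higher.

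The flanking genes were examined by a rule added after the values were seen, as the nearest tested protein-coding gene on each side of each of the 9 genes in the GENCODE annotation of GRCh37. Of these 18 genes, 2 rose, 1 fell and 15 were not called (limma), and over all genes tested 4.51% were called higher and 3.37% lower. CAV1, 111 kb before MET, fell by 1.11 on the log2 scale (adjusted p = 0.00828, limma), the direction opposite to the positive value of MET. VCL, 77.7 kb beyond PLAU, rose (log2 fold change 1.11), and so did SEMA3C, 777 kb from HGF (2.08). Both flanking genes of PLAUR (CADM4 and SMG9) and of PLAT (AP3M2 and IKBKB) were not called.

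Genes with the most similar pattern over the 6 libraries were found by Pearson's r of log2(FPKM + 1), as a description. They were EHD2, CAPN5 and UGCG for HGF (r = 0.999 each), PERP, STK39 and SHISA3 for MET (r = 0.999, 0.999 and 0.998), and RGS20, THBS1 and PHLDA1 for PLAU (r = 1.00, 0.999 and 0.999). Over these same 6 libraries, 762, 506 and 729 genes had an r above 0.95 with HGF, MET and PLAU, so such values are common. PERP showed the pattern of MET, with 3.27 FPKM in EWSR1::FLI1low replicate 1 against 9.69 and 10.4 FPKM in replicates 2 and 3.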

How the data were processed

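RNAseq was measured in 6 samples of A673/TR/shEF cells, assigned to groups and replicate numbers by their titles. The authors prepared ribosomal RNA-depleted libraries and, per the labels and methods, aligned reads to GRCh37 with STAR 2.5.0b and named Cufflinks 2.2.1 for abundance. For each library, FPKM by gene symbol was deposited. Reads were recovered from it through the deposited mean normalized count of each gene and the size factors, and 100% of values above 0 came out whole (within 0.1 reads). The FPKM values were thus already scaled by median-ratio size factors. A deposited DESeq2 comparison holds a mean signal per gene (mean normalized count, used only for this step), with fold changes, standard errors, statistics and p-values that were not used.

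FPKM values were tested with limma 3.58.1 (R 4.3.3; lmFit, eBayes with trend) on log2(FPKM + 1) over 15504 genes (mean FPKM 0.5 or more), with Benjamini-Hochberg adjustment and an adjusted p limit of 0.01; single values were compared with exact permutation tests. Since values are FPKM, the count test of the authors' methods was replaced. The steps were tested on simulated data (15504 genes, 200 changed; 95.5% of those changed by 3.5 on the log2 scale were recovered, and 71.6% of those raised by 2). Replicates of a group differed by more than sampling noise (chi-square per degree of freedom 4.25 to 31.5). The floor was 3 reads per library, and floors cover counting error only.

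Members and gene lists were chosen with earlier results of these data known. Named are the 9 genes, FLI1, EWSR1, called genes of the 8 lists (at most 10 each) with PLG, ANXA2, S100A10, LRP1, MST1R, CD44 and HPN, and the 3 genes most like HGF, MET and PLAU; flanking and overlapping genes and single markers were named after their values were seen. Of the lists, 2 genes are not reported here and stand in no count of them. Alternatives were a pseudocount of 0.1, no filter or a mean of at least 1 FPKM, median-ratio and quantile scaling, eBayes without trend, a replicate block, limma-voom on recovered reads, sample quality weights, limits of 0.05 or 2.5 (log2), and leaving out each library. Median-ratio scaling divided all libraries by the same factor, 1.02, so nearly equal results were fixed in advance and this setting is no separate check. Gene positions are from GENCODE v44 lifted to GRCh37. Python 3.11.15, pandas 2.3.3, scipy 1.17.1 and matplotlib 3.10.9 were used.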

Additional observations from a re-analysis of the deposited data

How the results depend on the processing

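HGF, PLAU and SPINT1 kept their side of the adjusted p limit in every alternative fit that could test them, with log2 fold changes of 1.58 to 2.93 for HGF and 2.84 to 3.36 for PLAU, while that of SPINT1 lay between -0.13 and 0.09 with either sign. SPINT1 was not tested at a mean of at least 1 FPKM. With sample quality weights, MET (1.84, adjusted p = 0.000178, limma) and PLAUR (2.84, adjusted p = 0.000119, limma) were also called higher, so 5 members were. The pathway genes called were 45 higher and 7 lower. Over all 15504 genes tested, this fit called 2488 higher and 2257 lower. Its lowest weight, 0.172, fell on EWSR1::FLI1low replicate 1, so the fit is not separate from leaving that library out. At an adjusted p under 0.05, 5 pathway genes were lower, and the share of all genes called lower at that limit was not computed. With single libraries dropped in turn, values ranged from 1.08 to 1.91 for MET, from 1.13 to 2.66 for PLAUR and from 2.69 to 3.87 for PLAT, all on the log2 scale. Members called higher ranged from 2 to 5 in these fits, pathway genes called higher from 8 to 34 and lower from 2 to 3. Over all genes tested, the same fits called 308 to 1527 higher and 157 to 807 lower. The highest counts of higher genes came without EWSR1::FLI1low replicate 1, and pathway genes called higher were 14, 8 and 9 without EWSR1::FLI1high replicates 1, 2 and 3 and 14 without EWSR1::FLI1low replicate 3, fits with fewer samples. The cause of the other shifts was not tested.

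With the replicate block, MET was called higher (log2 fold change 1.39, adjusted p = 0.00463, limma), so 4 members were, and no other member changed its call. Over all 15504 genes tested, the blocked fit called 916 higher and 786 lower. Deviations of same-numbered libraries correlated with r = 0.27, 0.09 and 0.12 for replicates 1, 2 and 3, and 4 of 6 libraries correlated best with their own number, so not every pair exceeded 0.1, and the fit without the block was kept. Whether libraries with the same number were cultured together is not settled by the labels. Values under about 1 FPKM rest on few reads, which limits what can be seen for HGFAC, ST14, SPINT1 and SPINT2.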
